A study of Mus musculus with 12 samples.

Results

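The genes of oxidative phosphorylation were followed in the deposited RNA-seq tables of C2C12 cells, a mouse myoblast line that fuses into myotubes when serum is lowered. Protein-coding genes were taken as members when their names were those of subunits of complexes I to V or of cytochrome c, or began with the mitochondrial prefix mt-. Of 10289 genes that had a row in at least 1 of the 3 deposited tables, 85 were members, 73 of them encoded in the nucleus and 12 in the mitochondrial genome. In the gene annotation, 109 genes carried such names, and the other 24 had no row and therefore no value. The names are broader than the complexes themselves. They also brought in 6 complex I assembly factors (Ndufaf genes), the electron carrier Cycs, and Cox7a2l, which takes part in joining complexes III and IV, so that 77 of the 85 members were subunits.

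The study asked how the m6A RNA methyltransferase subunits METTL3 and METTL14 act on muscle differentiation. The cells were stable lines made by lentiviral infection and puromycin selection, overexpressing GFP, METTL3 or METTL14, all kept in growth medium (GM, DMEM with fetal bovine serum), and the GFP line was also taken to day 4 (D4) in differentiation medium (DMEM with horse serum). Each of these 4 groups had 2 RNA-seq libraries, 8 in all, and nothing in the labels says that they came from separate cultures. For the METTL14 line the sample titles give day 0 whereas the time point field gives day 4, and the titles were followed. A further 4 MeRIP-seq libraries were not analysed here.

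The tables compared D4 with GM in the GFP line, METTL3 with GFP in GM, and METTL14 with GFP in GM. They hold no value per library. For each gene they give 1 mean normalized count, pooled by the authors, which did not differ between tables beyond a relative 4.77e-10. The level of a member below is therefore an average over lines and stages with no replicate error, and the depth of the libraries is unknown from these files. Levels of different genes were compared per kilobase of exon (the mean normalized count divided by the length of the union of the exons). The authors' fold changes and p-values were not used, so that no direction or size of change is given for any gene. A row says only that the authors kept the gene in that comparison at a false discovery rate of 0.05, and a missing row does not say that a gene was unchanged. Of 7 muscle markers 6 had a row for D4 against GM, among them the embryonic myosin Myh3 with a mean of 40372 and skeletal actin Acta1 with 53546. Myod1 had none there but had rows for METTL3 and METTL14, as 4 of the 7 did in each of those comparisons. The shares of all annotated protein-coding genes with a row were 40.1%, 7.8% and 4.91% for D4, METTL3 and METTL14. Of 8 markers of other cell types 0 had a row, so that they have no value here and their levels could not be checked.

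Oxidative phosphorylation passes electrons from NADH through complex I, or from succinate through complex II, to ubiquinone, then through complex III and cytochrome c to complex IV, which reduces oxygen. Complexes I, III and IV pump protons across the inner mitochondrial membrane, and complex V, the ATP synthase, uses the returning protons to make ATP. A small set of core subunits of complexes I, III, IV and V is encoded in the mitochondrial DNA, all other subunits are encoded in the nucleus, and muscle fibres carry a large amount of all of them.

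The mitochondrially encoded members fell into separate ranges of level along the mitochondrial genome, and a nuclear copy of part of that genome lay over the low range. A stretch of the mitochondrial genome, chrM:6390-11042 in GRCm38, had a copy of 4654 aligned bases at chr1:24611535-24616188 on the minus strand, with an identity of 99.94%. The copy differed from the mitochondrial stretch by 2 mismatches and 1 gap base. The sequences around the 3 differences are shown because no other base of the aligned stretch separates the nuclear copy from the mitochondrial genome in this reference. They are written 5′ to 3′ along the mitochondrial reference, and the capital marks the base that differs. The first lies in mt-Co1, at chrM:6390-6423 and chr1:24616155-24616188.
mitochondrial mt-Co1: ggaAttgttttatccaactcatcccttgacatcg
nuclear copy of mt-Co1: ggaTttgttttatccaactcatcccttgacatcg
The second lies in mt-Nd3, at chrM:9431-9491 and chr1:24613087-24613147.
mitochondrial mt-Nd3: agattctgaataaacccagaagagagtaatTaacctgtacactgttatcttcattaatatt
nuclear copy of mt-Nd3: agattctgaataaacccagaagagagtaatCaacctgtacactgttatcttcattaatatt
The third is an added base in the copy, between protein genes, at chrM:9799-9858 and chr1:24612719-24612779.
mitochondrial stretch: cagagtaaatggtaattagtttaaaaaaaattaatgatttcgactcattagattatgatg
nuclear copy: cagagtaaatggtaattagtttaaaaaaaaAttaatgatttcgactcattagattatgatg

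Of the 13 mitochondrial protein genes, 6 lay wholly inside this stretch, and the 5 of them with a row had levels between 156.5 and 809 per kb, with means between 46.5 and 553. The complex IV core subunits mt-Co2 (chrM:7013-7696) and mt-Co3 (chrM:8607-9390) had 809 and 405 per kb. The complex V subunit mt-Atp8 had 446 per kb, and the complex I core subunits mt-Nd3 and mt-Nd4l had 188 and 156.5 per kb. The sixth gene, the complex V subunit mt-Atp6 (chrM:7927-8607), had no row.

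The 7 genes that lay partly or wholly outside the stretch had levels between 53185 and 267470 per kb, with means between 32470 and 297907, and neither range overlapped that of the genes inside. Among the complex I core subunits, mt-Nd1 had the highest level of the 13 genes at 267470 per kb and mt-Nd2 had 109616 per kb. mt-Cytb, the core of complex III, had 260408 per kb. mt-Co1, the catalytic subunit of complex IV, had 190863 per kb, with 31.3% of its length inside the stretch. mt-Nd4 had 69742 per kb with 63.6% of its length inside the stretch, mt-Nd6, the one protein gene on the other strand, had 62563 per kb, and mt-Nd5 had 53185 per kb. This split by position was made after the values were seen and is a description.

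**Figure D1:**
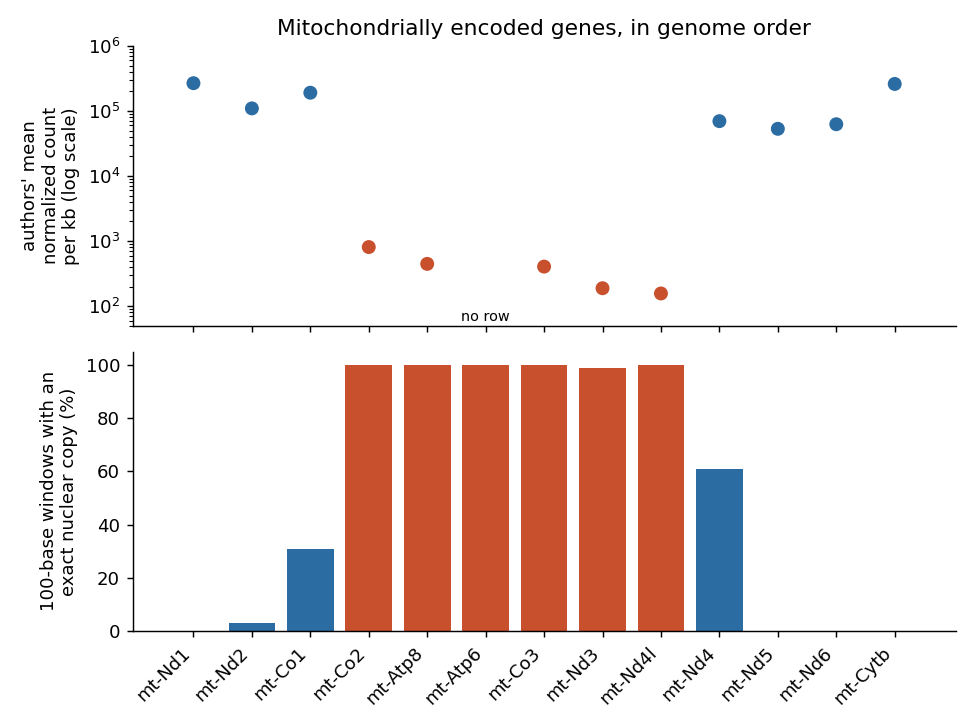
The 13 mitochondrially encoded protein genes in their order along the mitochondrial genome. The upper panel gives the authors' mean normalized count per kb on a log axis, and the lower panel the percent of 100-base windows of each transcript that occur without a mismatch in the nuclear chromosomes. The genes in red lie wholly inside the stretch copied on chromosome 1 and have levels between 156.5 and 809 per kb, and those in blue have 53185 per kb and above.

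Exact copies were counted in windows of 100 bases along each transcript. Every such window of mt-Co2, mt-Atp8, mt-Atp6, mt-Co3 and mt-Nd4l occurred in the nuclear chromosomes, and 98.8% of those of mt-Nd3. The share was 60.8% for mt-Nd4, 30.8% for mt-Co1 and 3.19% for mt-Nd2, and 0% for mt-Nd1, mt-Nd5, mt-Nd6 and mt-Cytb. The 7 annotated pseudogenes within the chromosome 1 copy all had a row for D4 against GM, with levels between 288 and 1071 per kb, a range that overlapped that of the 5 listed genes inside the stretch. How reads that fit both places were counted is not given in the sources used here, and the part of the nuclear copy in the low values was not tested.

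Among nuclear members, complex I, which takes electrons from NADH, was the largest group, with 27 subunits that had a row. Their median level was 448 per kb, from 48.7 for Ndufab1, the mitochondrial acyl carrier protein, to 1625 for Ndufb9, an accessory subunit of the membrane arm. The 6 nuclear core subunits, which carry the flavin and the iron-sulfur clusters, had a median of 628 per kb. Ndufs1 was the lowest of them at 268 per kb. The 6 assembly factors, which build complex I and are not part of it, had a median of 105.2 per kb, and the highest, Ndufaf1, had 198 per kb.

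Complex II, succinate dehydrogenase, is encoded by 4 nuclear genes, and all had a row. Sdhd, a membrane anchor, had the highest level at 840 per kb. The flavoprotein Sdha had 834 per kb and the iron-sulfur subunit Sdhb 432 per kb. The lowest, the other anchor Sdhc, had 319 per kb, so that the complex spanned a ratio of 2.63.

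Complex III, which passes electrons from ubiquinol to cytochrome c, had 9 nuclear subunits with a row and spanned a ratio of 2.3. Uqcr11, a small accessory subunit, was the highest at 1266 per kb, and the core protein Uqcrc1 the lowest at 551 per kb. Among the redox subunits, cytochrome c1 (Cyc1) had 1066 per kb and the Rieske protein Uqcrfs1 648 per kb. The carrier Cycs, somatic cytochrome c, had 163 per kb.

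Complex IV, cytochrome c oxidase, had 10 nuclear subunits with a row, and these were the most spread, over a ratio of 62.7. Cox8a was the highest at 3651 per kb, followed by Cox6b1 at 3113 per kb. Cox7a1, the heart and muscle form of subunit 7a, was the lowest at 58.2 per kb. The ratio rests on Cox7a1 and would not be the largest without it. A further 7 subunits of the complex had no row.

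Complex V had 15 nuclear subunits with a row. The catalytic part was led by the beta subunit Atp5b (chr10:128083273-128090391), which had a mean of 25095 and, at 5923 per kb, the highest level of any nuclear member. The alpha subunit Atp5a1 had 3231 per kb, the delta subunit Atp5d 2006 per kb, the gamma subunit Atp5c1 1842 per kb and the epsilon subunit Atp5e 188 per kb. The 4 subunits of the peripheral stalk, which holds the catalytic part still, had levels between 346 and 840 per kb. The lowest nuclear member of the complex was Atp5g1, at 134 per kb.

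**Figure D2:**
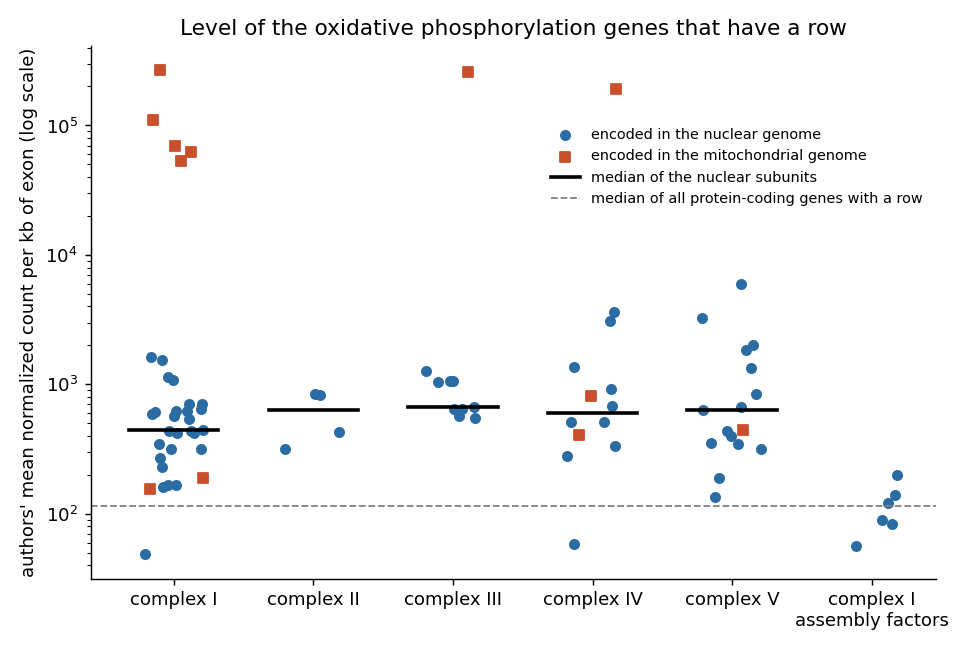
Level of each subunit with a row, by complex, and of the complex I assembly factors in a last column, as the authors' mean normalized count per kb of exon on a log axis. Cycs and Cox7a2l are not drawn. Blue circles are nuclear and red squares mitochondrial genes, black bars are the medians of the nuclear subunits (448, 633, 672, 598 and 635 per kb for complexes I to V), and the dashed line is the median of all protein-coding genes with a row, 114.5 per kb.

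Set beside all 9260 protein-coding genes that had a row and a length, 68 of the 73 nuclear members lay above the median of 114.5 per kb and 32 above the 90th percentile of 612 per kb. The 5 nuclear members below that median were Ndufab1, Cox7a1, and the assembly factors Ndufaf2, Ndufaf5 and Ndufaf6. The mitochondrial members made up 8.97% of the summed means of all listed genes and the nuclear members 0.848%. The sum leaves out every gene with no row, mt-Atp6 among them, so these are not shares of all RNA. The order of the complexes by median depended on the length used: with mitochondrial subunits included, complex V was the lowest per kb of exon, at 540.5, and the highest per kb of the longest transcript, at 1234. The order of genes within a complex also depended on it. Per kb of coding sequence the lowest were Sdhb in complex II, at 1145, and Uqcrc2 in complex III, at 1073. Sdhc then had 2044.5 and Atp5e 2119. Cox7a1 stayed the lowest of complex IV, and Atp5b the highest of complex V.

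Several subunits exist in forms encoded by separate genes, some of them typical of heart and skeletal muscle. Their means are pooled over stages, and of the 8 RNA-seq libraries 6 were in GM and 2 at D4, so that the levels are not those of either stage. For subunit 7a of complex IV, Cox7a2, the form of most tissues, had 918 per kb against 58.2 for the muscle form Cox7a1, with coding sequences that were 65.4% identical. For subunit 8, Cox8a, the form of most tissues, had 3651 per kb and the muscle form Cox8b 334 per kb, at 56.4% identity. For subunit 6a, the muscle form Cox6a2 had 516 per kb and Cox6a1 had no row. Neither gene of subunit 4, Cox4i1 or Cox4i2, had a row.

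The c subunit of the complex V rotor is encoded by 3 genes that give the same mature protein. Atp5g3 was the highest at 1346 per kb, Atp5g2 had 667 per kb and Atp5g1 134 per kb. Their coding sequences were between 70.9% and 75.1% identical. Of the Atp5g2 transcript, however, 87.5% of the 100-base windows also occurred elsewhere, with the longest match on chromosome 17, so its count is uncertain. Ndufa4, first described in complex I and now placed in complex IV, had 1541 per kb and was counted above with complex I, as its name has it.

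**Figure D3:**
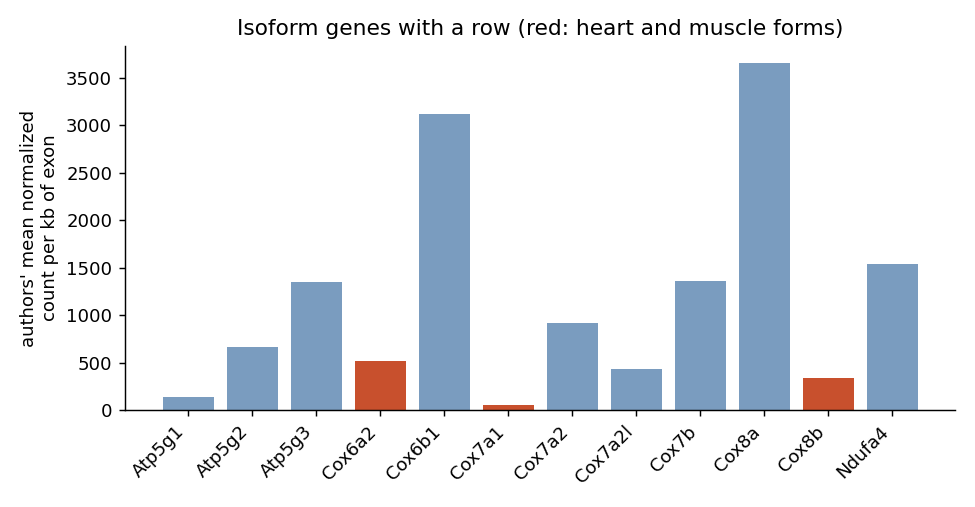
Level of the isoform genes that had a row, as the authors' mean normalized count per kb of exon on a linear axis from 0. Red bars are the heart and muscle forms of complex IV subunits. Cox7a1 (58.2) and Cox8b (334) stood below Cox7a2 (918) and Cox8a (3651) in this mean, which is pooled over stages.

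Copies elsewhere were counted for the nuclear genes in the same way. Of the 96 nuclear genes of the family, 70 had no 100-base window elsewhere in the nuclear chromosomes and 26 had at least 1, of which 19 had a row. At least 50% of the windows lay elsewhere for 3 genes, which were Atp5g2, Cox7c (68.3%) and Atp5l (77.3%, no row). The next were Ndufs5 (39.4%), Ndufa12 (38.5%), Ndufb4 (38%), Cox7a2l (36.3%) and Cycs (35.1%). The longest match of Ndufa12 was at chr5:130188393-130188887, where Ndufa12-ps is annotated. With windows of 50 bases, 46 of the 96 genes had at least 1 elsewhere. Counts of these genes are uncertain where reads could fit more than 1 place.

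Differentiation of the GFP line was the comparison in which most members had a row. For D4 against GM, 84 of the 109 annotated genes (77.1%) had a row, where 40.1% of all annotated protein-coding genes had one. By complex, rows were held by 34 of 44 subunits of complex I, 4 of 4 of complex II, 9 of 10 of complex III, 13 of 20 of complex IV and 16 of 20 of complex V. Of the mitochondrial subunits 12 of 13 had a row, and of the nuclear ones 64 of 85. With the genes that had a row in any table as the background, the shares were 98.8% of members and 95.2% of protein-coding genes. The 40.1% is over 21957 genes, whatever their level. Of the nuclear members, 68 of 73 lay above the median level of listed protein-coding genes. The part of level in these shares was not tested.

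The subunits with no row in any table belonged to complex I (10), complex IV (7) and complex V (4). They included Ndufs3 and Ndufs4 of complex I. Those of complex IV were Cox4i1, Cox6a1, Cox6c and the isoform genes Cox4i2, Cox6b2, Cox7b2 and Cox8c. Those of complex V were mt-Atp6, Atp5k, Atp5l and a second annotated entry of Atp5o, whose other entry had a row. Whether the genes with no row changed is not known from the tables used here.

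Fewer members had a row when METTL3 was overexpressed. For METTL3 against GFP in GM, 10 of 109 genes (9.17%) had a row, against 7.8% of all annotated protein-coding genes, a share near the background. Among genes with a row in any table, the shares were 11.8% of members and 18.5% of protein-coding genes, so that the order of members and background turned with the background used. Most genes of that set had a row for D4 against GM, so these shares depend on how the set was made. They were the complex I subunits Ndufa11, Ndufa12, Ndufb7, Ndufc2 and Ndufs7, the complex III subunits Cyc1 and Uqcr11, Cox8a of complex IV, and the catalytic subunits Atp5b and Atp5d of complex V. All 10 were nuclear, their levels ran from 229 per kb (Ndufb7) to 5923 per kb (Atp5b), and 5 of them lie on chromosome 10 (Ndufa12, Ndufs7, Uqcr11, Atp5b and Atp5d). That chromosome held 6 of the 96 nuclear genes of the family and 7.76% of all protein-coding genes with a METTL3 row, and 13% of its protein-coding genes had such a row. The cluster was noticed after the values were seen and was not tested. Of the 10, 9 also had a row for D4 against GM, and Uqcr11 was the one member that did not. Of all protein-coding genes with a METTL3 row, 78.3% had a row for D4 against GM. Both comparisons share the GFP libraries in GM.

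For METTL14 against GFP in GM, 0 of 109 genes had a row, against 4.91% of all annotated protein-coding genes. Whether the METTL3 and METTL14 lines differ in these genes was not tested.

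**Figure D4:**
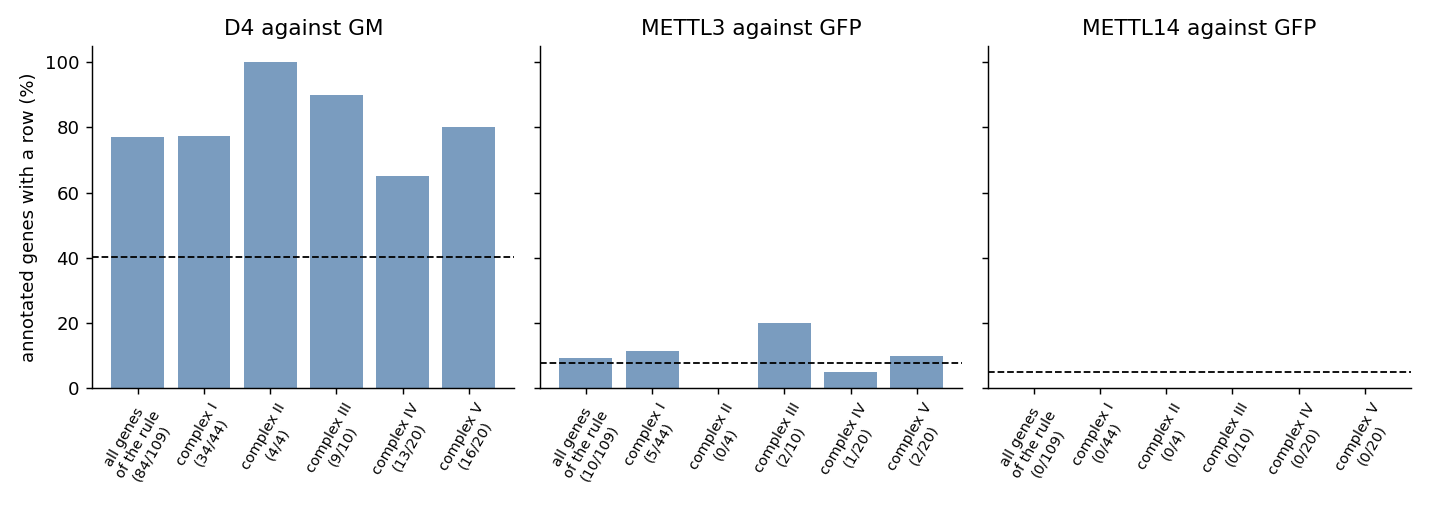
Percent of the annotated genes of each group that have a row in each of the 3 tables, with the counts under the bars. The dashed lines mark the share of all annotated protein-coding genes, 40.1%, 7.8% and 4.91%. Members stood at 77.1% for D4 against GM, 9.17% for METTL3 and 0% for METTL14.

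Genes that assemble the complexes or regulate them were followed in a list of 69. The list shares the 8 annotated Ndufaf assembly factors with the 109 genes above, and 6 of those 8 had a row for D4 against GM. Of the 69, 34 (49.3%) had a row for D4 against GM, 2 (2.9%) for METTL3 and 3 (4.35%) for METTL14. The shares of all annotated protein-coding genes were 40.1%, 7.8% and 4.91%. The ATP synthase inhibitor Atpif1, with a mean of 1047, had a row in all 3 tables. The nuclear receptor Esrra (ERR alpha), a regulator of mitochondrial genes, had a mean of 417 and rows for METTL3 and METTL14. The complex III assembly factor Bcs1l had a mean of 330 and a row for METTL14. The coactivator Ppargc1a had a mean of 56.3 and a row for D4 against GM. Tfam, which packages mitochondrial DNA and helps to start its transcription, had a mean of 730 and also a row for D4 against GM.

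Short sequence motifs were searched in the promoters of the nuclear genes. RefSeq promoters (GRCm38.p6, 250 bases before to 50 after the start) were found for 77 of the 96 nuclear genes, and 6 motifs were searched on both strands. None of the 6 was present in 22 of the 77 promoters. The NRF1 motif CGCATGCG was present in 14.3% of them and in 1.91% of all 27025 promoters. The YY1 motif AAGATGGCG was present in 9.09% against 1.49%, and the ETS motif CCGGAAG, bound by GABPA, in 23.4% against 9.12%. The ERR alpha motif TCAAGGTCA was present in 2 of the 77, Atp5g3 and Sdhd, or 2.6% against 0.407%. The CCAAT box was present in 45.5% against 37.9%, and the MYOD E-box CAGCTG in 7.79% against 16.1%. Among promoters of protein-coding genes with a row the shares were higher than among all promoters for NRF1 (3.89%), YY1 (2.99%) and ETS (17.5%). The 95% exact intervals of the family shares were wide. They included the share of all promoters for the CCAAT box (34.1% to 57.2%), the MYOD E-box (2.91% to 16.2%) and ERR alpha (0.316% to 9.07%). For ETS the interval, 14.5% to 34.4%, included the 17.5% of genes with a row. The shares of genes with a row also lay inside for the CCAAT box (39%) and the MYOD E-box (15.6%). For ERR alpha that share, 0.233%, lay below the interval. The promoters are a fixed list, and the intervals are not a test of the family. A match describes the letters and does not show binding.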

How the data were processed

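RNA-seq reads of C2C12 cells were, by the authors, aligned to GRCm38 with hisat2, counted per gene with featureCounts on an Ensembl annotation and compared with DESeq2. Program versions and the handling of reads with several matches are not given in the sources used here. The values used are a signal that the authors deposited: the mean over libraries of counts divided by size factors. The deposited tables also hold the authors' log2 fold changes, standard errors, statistics, p-values and adjusted p-values, none of which were used as results; the adjusted p-value was read once, to test the filter, and 0 rows lay above 0.05. An unheaded value beside 1 gene in 2 tables was not used. No library has a value of its own, so no test was run and precision is unknown.

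Genes were matched by Ensembl identifier to GENCODE M21 (GRCm38, another release than the authors'), and 7 listed genes were not found there. Lengths are unions of exons. Copies were sought with blastn 2.17.0 (megablast, word size 28, at least 90% identity) in the RefSeq chromosomes of GRCm38.p6, and coding sequences of isoform genes were aligned with Biopython 1.88. The functions were tested on simulated sequences. The genes named are the highest and lowest of each complex, those with a row for METTL3 or METTL14, isoform genes and mitochondrial genes. Others were named after their values were seen, such as regulators, listed subunits without a row and the subunits of the catalytic part. The members and lists were chosen with earlier results of these data known. Alternatives were other lengths, gene sets, backgrounds, windows and promoter spans. The value of 1 member is not reported here.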

Additional observations from a re-analysis of the deposited data

Results flagged for a closer look

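Signal was present in rows that the comparisons above did not use, and is given as the authors' mean normalized count with no error. Among genes named by the mitochondrial prefix that do not code for protein, the ribosomal RNAs mt-Rnr2 and mt-Rnr1 had means of 53617 and 9702, with mt-Rnr2 listed in all 3 tables. The transfer RNAs mt-Te, mt-Tp and mt-Tq had means of 566, 487 and 48.1, and mt-Tp was listed for D4 and for METTL14.

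The 7 pseudogenes in the copy of mitochondrial DNA on chromosome 1 were listed for D4 against GM. From the start of the copy upwards along chromosome 1, Gm28439 had a mean of 395, Gm10222 of 84.6, Gm28438 of 99.8, Gm28437 of 565, Gm10925 of 726, Gm28661 of 346 and Gm29216 of 314. The processed pseudogene Ndufa12-ps on chromosome 5 had a mean of 192 and, like Ndufa12, had rows for D4 and for METTL3. There were no control values per group for any of these, and their source was not tested.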

How the results depend on the processing

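No paired analysis was possible because the tables hold no value per library, and for the same reason no replicate could be left out. Protein identity of isoforms was not run, and coding DNA was compared in its place, chosen after the data were seen. Median levels per kb moved with the length used. For complexes I to V they were 557.9, 633.3, 857.3, 680.4 and 540.5 per kb of exon. Per kb of the longest transcript they were 673.5, 812.9, 1116, 808.8 and 1234, and per kb of coding sequence 1425, 1886, 2803, 2449 and 3662. Nuclear genes alone gave 447.5 for complex I, 671.7 for III, 598.4 for IV and 634.8 for V. With Ndufa4 in complex IV, complexes I and IV had 542.6 and 744.6. Among promoters of protein-coding genes with a row, an added background, the motif shares were 3.89% for NRF1, 0.233% for ERR alpha, 2.99% for YY1 and 17.5% for ETS. With 50-base windows, also added, 7 nuclear genes in place of 3 had at least 50% of their windows elsewhere. The shares of members with a row and of family promoters with a motif stayed within 1.5 times of their values under the alternatives run. The shares of protein-coding genes set beside the members did not. With genes listed in any table as background they went from 40.1% to 95.2% for D4 against GM and from 7.8% to 18.5% for METTL3. The alternative with a mean of at least 100 limited only the genes counted, and the total stayed at 109.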
